A study of Mus musculus with 31 samples.

Results

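Genes of the blood vessel wall and its growth signals, 10 in number, were followed through the differentiation of mouse induced pluripotent stem cells. They were Tek and Tie1, the Tie receptors, Angpt1 and Angpt2, the angiopoietins that bind Tek, Kdr and Flt1, the receptors of vascular endothelial growth factor (VEGF), Vegfa, their main ligand, the cell adhesion genes Pecam1 and Cdh5, and Aplnr, the apelin receptor. Members were found by gene symbol among the probe sets annotated to 1 gene, and each gene was read from the brightest of its probe sets, by the mean of all 31 arrays. All 10 were measured, out of 18194 genes in all, and they are covered by 18 probe sets. The rule for the probe sets used no difference between groups.

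VEGF made by neighbouring cells acts on Kdr, the receptor that drives endothelial cells to form, divide and migrate, while Flt1 binds the same ligand tightly and signals weakly, so that it also acts as a trap. Angpt1, made by cells around the vessel, activates Tek and steadies the endothelium, Angpt2 competes with it in a context-dependent way, and Tie1 binds no angiopoietin by itself and modulates Tek. Cdh5 (VE-cadherin) and Pecam1 (CD31) join endothelial cells to each other, and in the mouse Pecam1 is also carried by undifferentiated pluripotent cells. Aplnr marks early mesoderm before it marks vessels, and in the embryo Kdr likewise appears in mesoderm that gives rise to blood, vessels and heart.

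Promoter sequence (the 250 bases before the transcription start, RefSeq, GRCm38.p6) was matched for 5 of the 10 genes, Tek, Tie1, Kdr, Flt1 and Vegfa. The sequences of the 4 receptor tyrosine kinases are shown because these receptors took different courses below. They lie at chr4:94739039-94739288 on the plus strand for Tek, and on the minus strand at chr4:118489850-118490099 for Tie1, chr5:75978456-75978705 for Kdr and chr5:147726012-147726261 for Flt1. Each is written 5′ to 3′ on the strand of its gene, and capitals mark matches on either strand to 6 short motifs. AGGAAG and its variant CGGAAG are bound by ETS factors, AACAGGAA jointly by FOX and ETS factors, and AGATAA by GATA factors, while ACGTG and its variant GCGTG serve the hypoxia response.
Tek: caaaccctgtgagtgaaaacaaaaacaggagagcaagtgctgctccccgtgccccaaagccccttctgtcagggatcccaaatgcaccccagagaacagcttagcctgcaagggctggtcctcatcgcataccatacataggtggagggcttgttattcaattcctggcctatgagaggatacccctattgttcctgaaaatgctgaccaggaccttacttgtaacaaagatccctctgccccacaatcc
Tie1: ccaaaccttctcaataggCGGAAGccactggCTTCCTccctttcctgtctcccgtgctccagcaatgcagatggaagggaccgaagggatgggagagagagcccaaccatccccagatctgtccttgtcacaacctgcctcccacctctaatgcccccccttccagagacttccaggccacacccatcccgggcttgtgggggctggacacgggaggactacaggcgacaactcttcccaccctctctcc
Kdr: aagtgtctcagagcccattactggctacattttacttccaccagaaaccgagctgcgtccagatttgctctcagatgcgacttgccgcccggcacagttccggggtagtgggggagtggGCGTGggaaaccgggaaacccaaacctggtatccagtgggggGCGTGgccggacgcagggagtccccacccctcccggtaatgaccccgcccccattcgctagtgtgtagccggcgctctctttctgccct
Flt1: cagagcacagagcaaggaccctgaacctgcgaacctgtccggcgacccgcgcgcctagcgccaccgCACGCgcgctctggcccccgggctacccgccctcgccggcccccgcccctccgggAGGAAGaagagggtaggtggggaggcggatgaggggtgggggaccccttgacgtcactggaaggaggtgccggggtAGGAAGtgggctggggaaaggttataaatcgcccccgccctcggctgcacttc
The Tek window held none of the 6 motifs. The Tie1 window held CGGAAG at position -232 and, on the reverse strand, AGGAAG at -219, counted back from the start. The Kdr window held GCGTG at -131 and -89, and the Flt1 window AGGAAG at -129 and -53 and GCGTG on the reverse strand at -184. AGGAAG occurs in 29.5% of 32851 promoter windows of this length, CGGAAG in 13.6%, GCGTG in 28.2%, ACGTG in 16.6%, AGATAA in 9.99% and AACAGGAA in 2.25%, so these matches are a description of the letters and no more.

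Sendai virus was used to reprogram tail-tip fibroblasts of adult male mice, either wild type CD1 mice (control) or Nos3-/- mice of the strain B6.129P2-Nos3tm1unc/J, which carry a disrupted gene for endothelial nitric oxide synthase. Day 0 cells were undifferentiated and grew on inactivated mouse embryonic fibroblasts, whose RNA is part of those samples, and day 11 samples were embryoid bodies, aggregates formed in Aggrewell plates and left to differentiate spontaneously. There were 10 control and 6 Nos3-/- arrays at day 0, and 9 control and 6 Nos3-/- arrays at day 11. Genotype and strain cannot be told apart in any comparison of Nos3-/- with control. The labels do not say which arrays come from separate clones or cultures, so the spread behind each p-value is that from array to array and may be technical, and the number of arrays limits the precision.

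Values are log2 intensities, so a difference of 1 is a doubling, and a difference in limma passed where its p, adjusted by Benjamini-Hochberg over 18194 genes, was under 0.05. Of all genes, 9.17% passed as higher and 7.47% as lower in Nos3-/- at day 0, and 4.41% and 5.29% at day 11. Over time 16% rose and 18.2% fell in control, and 13% and 18.1% in Nos3-/-. In the difference between the time courses 1.24% passed. Counts in gene lists below are to be read beside these shares. The array values ran from 2.32 to 15.01, with medians of 6.13 to 6.23, and the median correlation of an array with its own group ran from 0.961 to 0.994. The array least like its group was replicate 1 of control day 0, replicate 3 of Nos3-/- day 0, replicate 1 of control day 11 and replicate 3 of Nos3-/- day 11. Differences that rest on these arrays are given without them. Nos3-/- day 0 replicate 3 also went against its group in the averages of marker genes. Its mean over 23 pluripotency genes was 8.76, against 10.81 to 11.26 on the other 5 Nos3-/- arrays, and its mean over 19 mesendoderm genes, the genes of the first embryonic layers, was 8.46, against 5.95 to 7.28. Nos3 itself was 0.33 higher in Nos3-/- at day 0 (limma adjusted p = 0.0295) and 0.17 lower on the log2 scale at day 11 (-0.17, adjusted p = 0.386), so its probe set did not separate the genotypes in the direction of their labels, and where on the transcript it reads relative to the disrupted part was not analysed here.

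**Figure D1:**
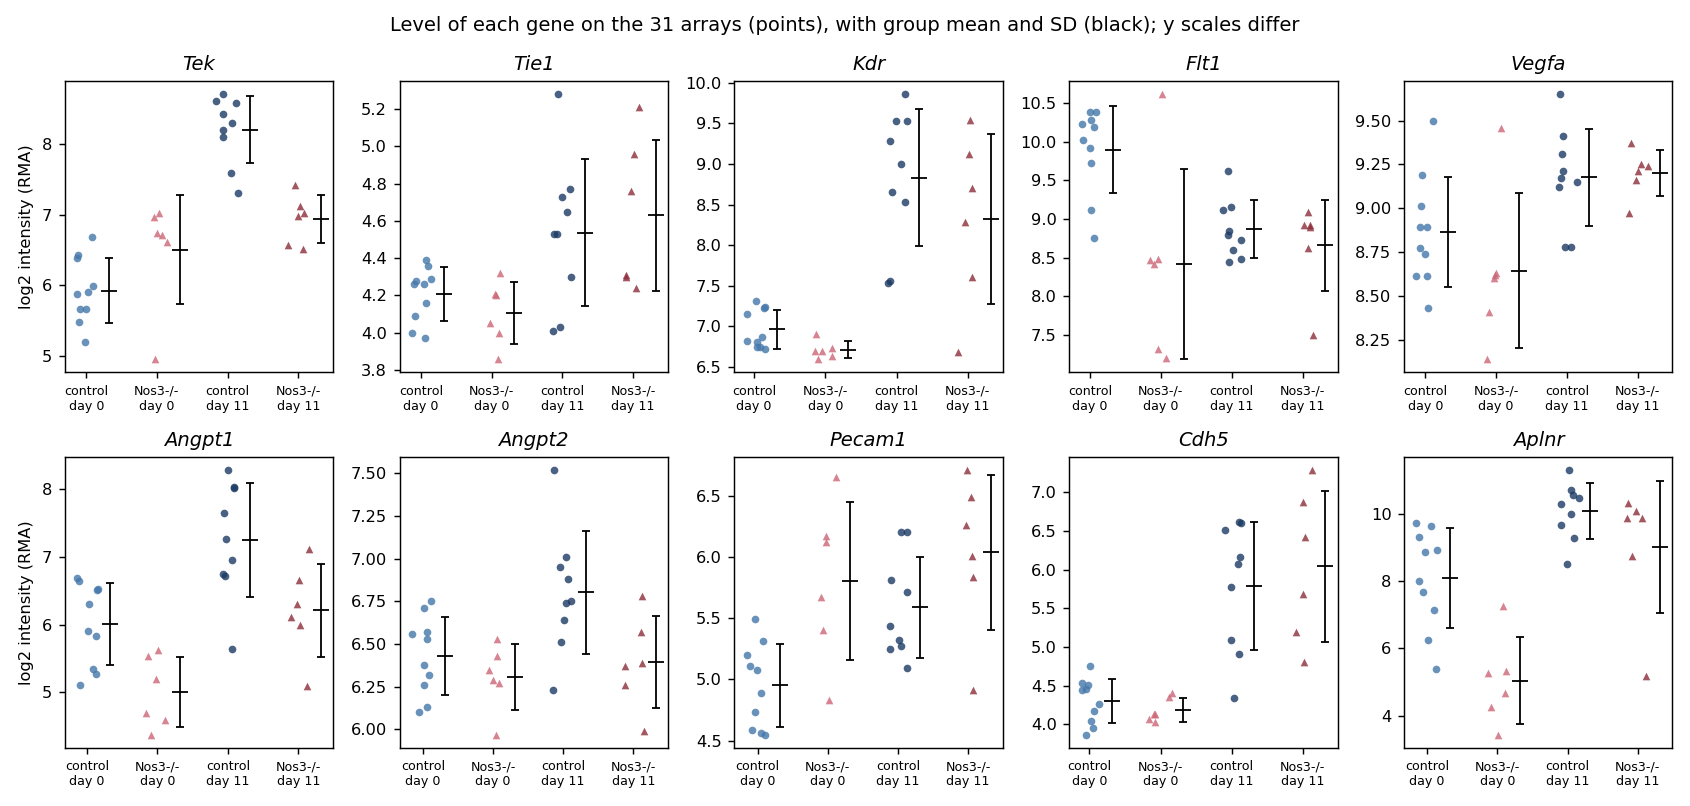
Log2 intensity of the 10 genes on each of the 31 arrays (points) by genotype and day, with the mean and SD of each group. Tek stood at a mean of 8.21 in control embryoid bodies and 6.94 in Nos3-/- embryoid bodies, and Kdr and Cdh5 were higher at day 11 than at day 0 in both genotypes.

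Tek, the receptor of the angiopoietins, was the gene whose course over time differed between the genotypes. It rose 4.86-fold from day 0 to day 11 in control cells, and its change in Nos3-/- cells was 1.36-fold and did not pass (0.44 on the log2 scale, and 0.13 without Nos3-/- day 0 replicate 3). In control cells it ran from 5.20 to 6.68 at day 0, with a median of 5.89, and from 7.31 to 8.71 at day 11, with a median of 8.30. In Nos3-/- cells the arrays read 6.97, 6.74, 4.96, 7.02, 6.71 and 6.62 at day 0 and 7.12, 6.98, 7.03, 6.58, 6.52 and 7.42 at day 11. No control day 11 array overlapped a control day 0 array, while the Nos3-/- arrays of the 2 days overlapped and 5 of 6 Nos3-/- embryoid bodies lay below every control embryoid body, in a comparison where 2.6% of all genes and 0 of the members had groups that did not overlap.

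The rise of Tek in control cells was 2.28 (SE 0.23, limma adjusted p = 5.35e-09), and the change in Nos3-/- cells was 0.44 (SE 0.29, limma adjusted p = 0.255). The difference between these changes was -1.84 (SE 0.37, 95% interval -2.59 to -1.09, limma adjusted p = 0.011). It passed in each of the 40 alternatives that gave a value, from -2.23 to -1.74 with adjusted p up to 0.0266, and gave none where genes below the median level were left out, since Tek is then not tested. At day 11 the control level of 8.21 ± 0.47 (SD, n = 9) stood against 6.94 ± 0.34 (SD, n = 6) for Nos3-/-, a difference of -1.27 (SE 0.26, limma adjusted p = 0.00135), which passed in 41 of 41 alternatives. Those that left out a day 0 array could not change this difference, only its p.

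At day 0 the order was the other way, with 6.50 ± 0.77 (SD, n = 6) for Nos3-/- against 5.93 ± 0.46 (SD, n = 10) for control. Above every control array lay 4 of 6 Nos3-/- arrays, and replicate 3 lay below every one, in a comparison where 1.92% of all genes and 0 of the members had groups that did not overlap. The difference of 0.58 (SE 0.26) did not pass (limma adjusted p = 0.124), and without replicate 3 it was 0.88 (adjusted p = 0.00383, range over the alternatives 0.00264 to 0.249). The 4 groups therefore ran, from low to high, control day 0, Nos3-/- day 0, Nos3-/- day 11 and control day 11, and the neighbours in that order up to Nos3-/- day 11 did not differ beyond their spread. Tek was read by 1 probe set, so no second measure of it was at hand.

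Of the 10 genes, 1 passed in the difference between the 2 time courses, against 1.24% of all genes, and that gene was Tek. The other 9 had differences from -0.41 for Pecam1 to 1.97 for Aplnr, with adjusted p of 0.181 or more. Flt1 joined Tek without Nos3-/- day 0 replicate 3 (1.71, adjusted p = 0.0132, range 0.000388 to 0.36), and Flt1 and Aplnr both joined it without the 4 arrays least like their groups. Both time courses use the day 0 and day 11 arrays of their own genotype, and the genotype comparisons at day 0 and day 11 use those same arrays, so the 5 comparisons are not independent of each other.

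Tie1, the partner of Tek, showed no genotype difference that passed on either day. Its level was 4.21 ± 0.15 (SD, n = 10) and 4.11 ± 0.17 (SD, n = 6) at day 0 in control and Nos3-/-, and 4.54 ± 0.39 (SD, n = 9) and 4.63 ± 0.41 (SD, n = 6) at day 11. It rose by 0.52 in Nos3-/- cells (SE 0.17, limma adjusted p = 0.018), a call lost without Nos3-/- day 11 replicate 1 (adjusted p = 0.0516) or replicate 6 (0.0623, range 0.00438 to 0.0623). In control cells the change was 0.33 (SE 0.13, limma adjusted p = 0.0541), and it passed in 11 of 40 alternatives (adjusted p 0.00904 to 0.14). Over all arrays the 2 changes thus fell on either side of the threshold, and the difference between the changes was 0.19 (adjusted p = 0.698). The day 11 arrays of both genotypes were spread upward, to 5.28 in control and 5.21 in Nos3-/-, from lowest values of 4.01 and 4.24.

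Angpt1, the activating ligand of Tek, was lower in Nos3-/- cells at day 0 and rose by about as much in both genotypes. At day 0 it ran from 5.11 to 6.68 in control, with a median of 6.10, and from 4.38 to 5.63 in Nos3-/-, with a mean of 5.01 ± 0.52 (SD, n = 6) against 6.01 ± 0.61 (SD, n = 10). The difference was -1.004 (SE 0.34, limma adjusted p = 0.0394), the groups overlapped, and the call was lost in 10 of 41 alternatives (adjusted p 0.00685 to 0.185). At day 11 control lay at 7.25 ± 0.84 (SD, n = 9) and Nos3-/- at 6.21 ± 0.69 (SD, n = 6), and the difference of -1.04 (SE 0.34) did not pass (limma adjusted p = 0.0528), though it passed in 8 of 41 alternatives. Thus the genotype difference was of similar size on both days, and its side of the threshold depended on the setting on both.

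Over time Angpt1 rose by 1.24 in control (SE 0.30, limma adjusted p = 0.00177) and by 1.21 in Nos3-/- (SE 0.38, limma adjusted p = 0.0159), with a difference between the changes of -0.04 (95% interval -1.02 to 0.95). The dimmer of its 2 probe sets did not follow: it changed by 0.20 in control (adjusted p over probe sets 0.0852) and 0.09 in Nos3-/-, and its genotype differences were -0.04 and -0.16. The mean level of the dimmer one was 4.72, where array medians were 6.13 to 6.23. The Angpt1 results therefore rest on the brighter probe set.

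Angpt2, the context-dependent partner, moved little. It rose by 0.37 in control (SE 0.12, limma adjusted p = 0.0191), from 6.43 ± 0.23 (SD, n = 10) to 6.80 ± 0.36 (SD, n = 9), and its change in Nos3-/- was 0.09 (adjusted p = 0.707), from 6.31 ± 0.19 to 6.39 ± 0.27 (SD, n = 6 each). The control rise missed the threshold without control day 11 replicate 9 (adjusted p = 0.0508) and with the mean of its probe sets (0.0539, range 0.00114 to 0.0539), and its second probe set was flat, at -0.04 in control. At day 11 Nos3-/- was lower by 0.41 on the log2 scale (-0.41, SE 0.14, adjusted p = 0.0646), which did not pass, though it passed in 5 of 41 alternatives (adjusted p 0.0178 to 0.261).

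The genes listed beside the Tie receptors and the angiopoietins (14 measured, with angiopoietin-like proteins, adaptors of Tek and targets of its signalling) gave 1 higher and 2 lower in Nos3-/- at day 11. The lower ones were Grb14, an adaptor that docks on receptor tyrosine kinases, with -1.72 (limma adjusted p = 2.63e-09), and Svep1, an extracellular matrix protein, with -0.99 (0.00235). Grb14 was also -1.72 at day 0. The higher one was Foxo1, a transcription factor held in check by Tek signalling, at 0.36 (0.047), a call lost in most settings that left out 1 array. At day 0, 3 were higher and 2 were lower. The higher ones included Dok2, a docking protein bound by Tek (1.10, adjusted p = 0.0213), and Nos3 itself, which is on this list and whose probe set did not follow the genotype labels. The total moved from 5 to 3 without any one of Nos3-/- day 0 replicates 2, 4, 5 and 6 and control replicates 2 and 10. Over time 3 rose and 5 fell in control and 1 rose and 5 fell in Nos3-/-, with Angptl4, an inhibitor of lipoprotein lipase, at -1.21 and -1.49, and the list's median was -0.28 and -0.18, beside -0.03 and -0.06 over all genes. The Angptl4 calls were lost when probe sets that may read several genes were left out (-0.23 and -0.32).

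**Figure D2:**
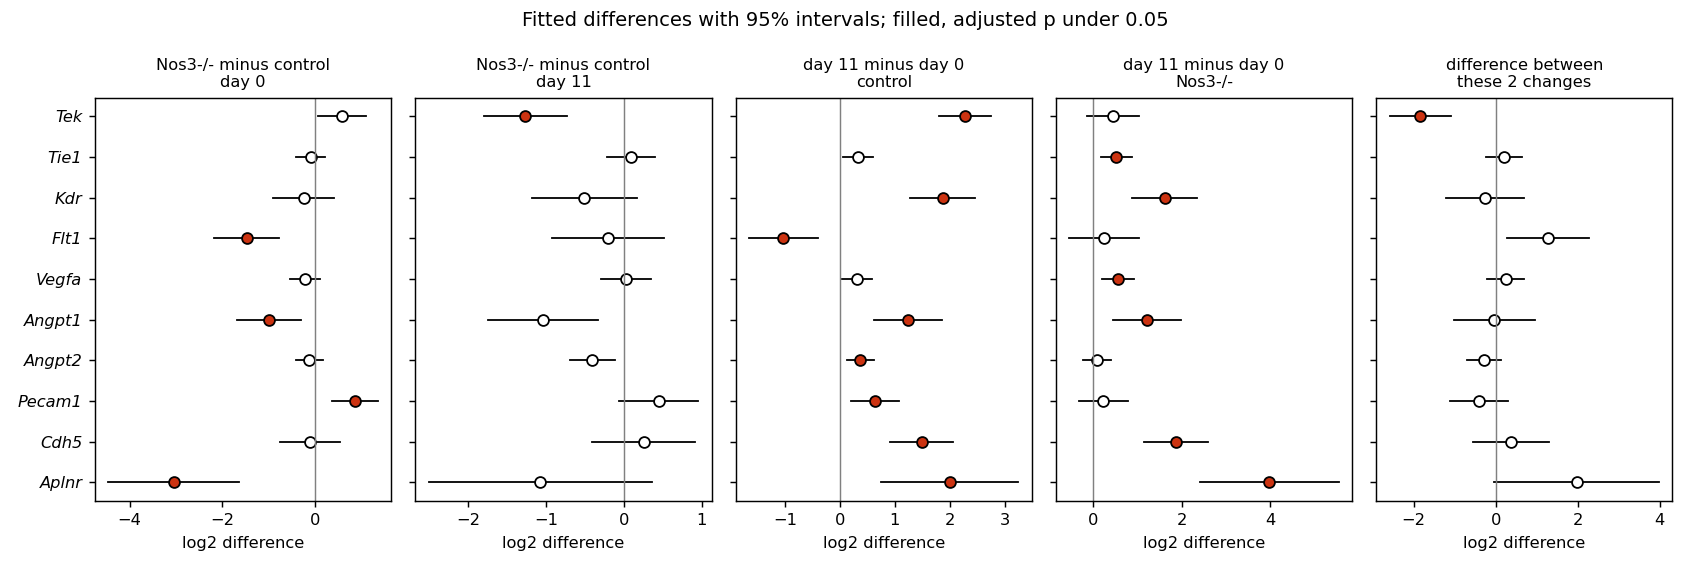
Fitted log2 differences (points) of the 10 genes in the 5 comparisons, with 95% intervals (lines), filled where the adjusted p was under 0.05. Of the differences between the 2 time courses, on the right, Tek at -1.84 is the filled one, and Flt1 has opposite signs over time in the 2 genotypes.

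Kdr, the signalling receptor of VEGF, rose in both genotypes and did not differ between them beyond the spread. In control it ran from 6.72 to 7.31 at day 0, with a median of 6.85, and from 7.54 to 9.86 at day 11, with a median of 9.00. In Nos3-/- it ran from 6.60 to 6.91 at day 0 and read 9.12, 8.70, 6.68, 7.61, 8.29 and 9.54 at day 11. The control groups did not overlap, and 5 of 6 Nos3-/- embryoid bodies lay above every Nos3-/- day 0 array, the exception being replicate 3. The rises were 1.87 in control (SE 0.29, limma adjusted p = 8.45e-06) and 1.61 in Nos3-/- (SE 0.36, limma adjusted p = 0.00136), and the difference between them was -0.26 (95% interval -1.21 to 0.69, adjusted p = 0.827). The genotype difference at day 11 was -0.51 (adjusted p = 0.409), and -0.18 without replicate 3.

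Flt1, the VEGF trap, was the member of the VEGF group whose genotype difference passed before differentiation. At day 0 control arrays ran from 8.75 to 10.38, with a median of 10.11, and the Nos3-/- arrays read 7.32, 8.47, 10.61, 8.42, 7.21 and 8.48. Among the Nos3-/- arrays 5 of 6 lay below every control array and replicate 3 lay above every one. The difference was -1.48 (SE 0.34, limma adjusted p = 0.00412), a 2.78-fold lower level, and it passed in 42 of 42 alternatives, from -2.04 to -1.24. Those that left out a day 11 array could not change the difference itself. The 4 probe sets of Flt1 gave -1.48, -1.58, -1.45 and -1.25, each of which passed over all probe sets.

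By day 11 Flt1 lay at 8.87 ± 0.37 (SD, n = 9) for control and 8.66 ± 0.59 (SD, n = 6) for Nos3-/-, a difference of -0.21 (adjusted p = 0.821). It fell by 1.03 on the log2 scale in control (-1.03, SE 0.31, limma adjusted p = 0.00941), which 2 of its 4 probe sets passed, and changed by 0.24 in Nos3-/- (SE 0.38, adjusted p = 0.669). That change was 0.68 without Nos3-/- day 0 replicate 3, and 0.91 without the 4 arrays least like their groups, where it passed (adjusted p = 0.00613, range over the alternatives 0.00613 to 1). The difference between these changes was 1.27 (SE 0.49, adjusted p = 0.181) and did not pass. From low to high the groups were Nos3-/- day 0, Nos3-/- day 11, control day 11 and control day 0, and over all arrays only the step to control day 0 exceeded the spread. Kdr and Flt1, which bind the same ligand, thus had changes of opposite sign in control cells.

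Vegfa, the ligand, kept within a narrow range. It was 8.86 ± 0.31 (SD, n = 10) and 8.64 ± 0.44 (SD, n = 6) at day 0 and 9.18 ± 0.28 (SD, n = 9) and 9.20 ± 0.13 (SD, n = 6) at day 11, in control and Nos3-/- in turn. It rose in Nos3-/- cells by 0.56 (SE 0.17, limma adjusted p = 0.0149), its change in control was 0.31 (adjusted p = 0.0789), and the difference between them was 0.25 (adjusted p = 0.614). The control change passed in 6 of 42 alternatives, among them without the 4 arrays least like their groups (0.43, limma adjusted p = 0.00201, range 0.00201 to 0.309). The second probe set of Vegfa changed by 0.21 in Nos3-/- (adjusted p over probe sets 0.195) and -0.03 in control. No genotype difference in Vegfa passed on either day over all arrays. Nos3-/- day 0 replicate 3 was the highest of its group, at 9.46, and without it the day 0 difference went from -0.22 (adjusted p = 0.351) to -0.38 (adjusted p = 0.0448, range over the alternatives 0.0448 to 0.656) and passed.

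**Figure D3:**
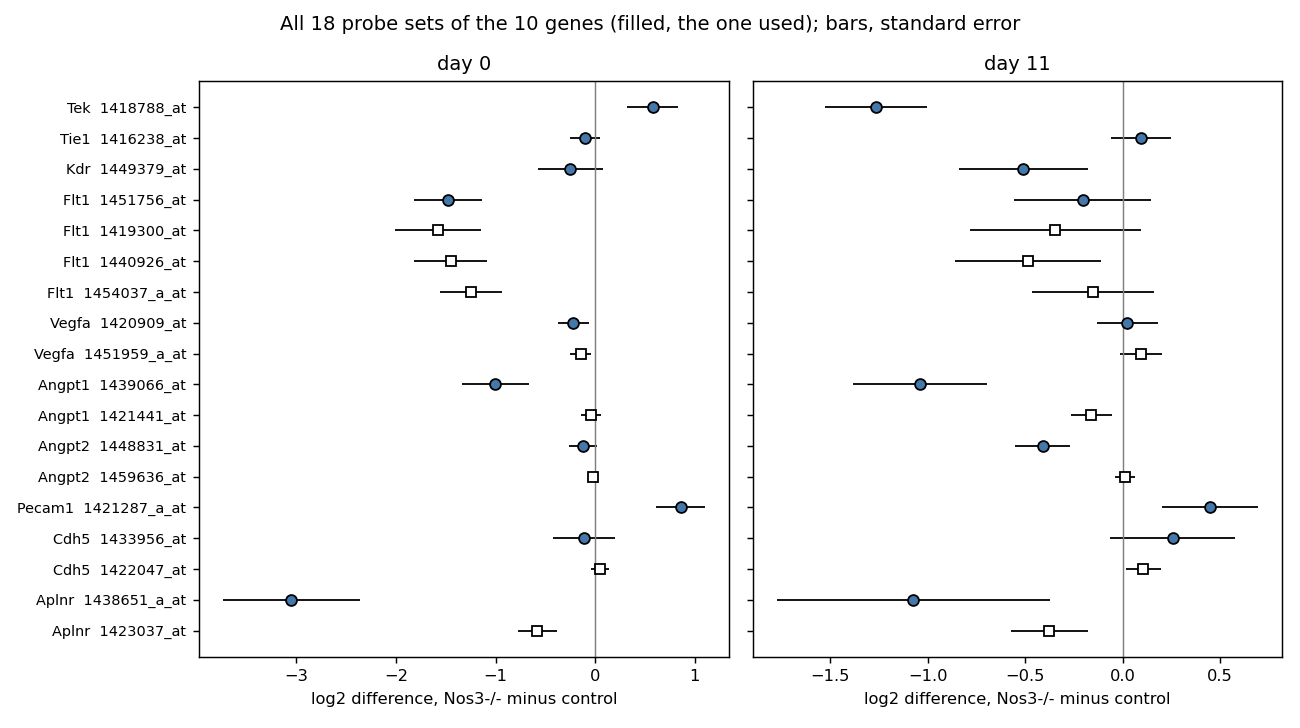
Fitted log2 differences of each of the 18 probe sets of the 10 genes for Nos3-/- minus control at day 0 (left) and day 11 (right), with standard errors (bars), filled for the probe set used. The 4 Flt1 probe sets lie together at day 0, between -1.58 and -1.25, while the dimmer probe set of Angpt1 lies at -0.04 where the one used lies near -1.

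Among 20 further genes of the VEGF pathway and its Notch arm, 3 were lower and 0 higher in Nos3-/- embryoid bodies (3 and 3 at an unadjusted p under 0.05 in limma). They were Nrp1, a co-receptor of VEGF (-1.81, limma adjusted p = 0.00703), Hey2, a Notch target of arteries and heart (-1.61, adjusted p = 1.4e-06), and Nrp2, the second co-receptor (-1.41), which is named here after its value was seen. The median difference of these 20 genes at day 11 was 0.05, beside 0 over all genes. Hey2 shared with Tek a rise in control embryoid bodies that was smaller in Nos3-/-. It went from 4.63 ± 0.26 to 6.81 ± 0.37 in control and from 4.48 ± 0.18 to 5.19 ± 0.69 in Nos3-/-, and its difference between the changes was -1.47 (adjusted p = 0.00874). Shb, an adaptor of Kdr, also passed in that comparison, with the opposite sign (0.85, adjusted p = 0.0305), which was lost without Nos3-/- day 0 replicate 5 (adjusted p = 0.0616), replicate 6, Nos3-/- day 11 replicate 2 or control day 11 replicate 8.

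Over time 7 of the 20 genes rose and 5 fell in control, and 4 rose and 2 fell in Nos3-/-. Nrp1 rose by 1.28 in control, Notch1 by 0.62 in Nos3-/-, and Vegfd, a ligand of lymphatic vessels, changed by -0.69 in control. The Nos3-/- count of 6 was 10 without the 4 arrays least like their groups and 4 without Nos3-/- day 0 replicate 6 or day 11 replicate 6. At day 0, 1 was higher (Rasip1, needed to open vessel lumens, 0.71) and 3 lower, Nrp2 (-0.77), Nrarp, a brake on Notch signalling (-0.73), and Shb (-0.46), the last of which is named after its value was seen. None of these 4 passed without Nos3-/- day 0 replicate 5, and 1 or 2 genes of the list did without Nos3-/- replicate 1, 2 or 6 or control replicate 2, 3, 6 or 10.

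Cdh5, the cadherin of endothelial junctions, rose in both genotypes and did not differ between them beyond the spread. In control it ran from 3.87 to 4.76 at day 0, with a median of 4.36, and from 4.34 to 6.62 at day 11, with a median of 6.08. In Nos3-/- it ran from 4.03 to 4.41 at day 0 and read 6.88, 6.42, 4.81, 5.20, 5.68 and 7.29 at day 11. The 2 days did not overlap in Nos3-/- and overlapped in control through control day 11 replicate 1, at 4.34. The rises were 1.49 in control (SE 0.28, limma adjusted p = 0.000121) and 1.86 in Nos3-/- (SE 0.35, limma adjusted p = 0.000276), and the difference between them was 0.37 (95% interval -0.56 to 1.29, adjusted p = 0.733). The dimmer probe set of Cdh5 was flat in both, at -0.07 and -0.02. Its mean level was 3.91, where array medians were 6.13 to 6.23, so it may be too dim to show a rise.

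Pecam1, the adhesion receptor shared by endothelium and undifferentiated mouse cells, was the one member to pass as higher in Nos3-/- cells at day 0, where Tek, at 0.58, did not pass. Control arrays ran from 4.55 to 5.49, with a median of 4.99, and Nos3-/- arrays read 6.17, 6.12, 4.83, 5.40, 6.65 and 5.67. Among the Nos3-/- arrays 4 of 6 lay above every control array, and replicate 3 was the lowest of its group. The difference was 0.86 (SE 0.24, limma adjusted p = 0.0158), and it missed the threshold without Nos3-/- day 0 replicate 5 (0.69, adjusted p = 0.0798, range 0.000207 to 0.0798).

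By day 11 Pecam1 lay at 5.59 ± 0.41 (SD, n = 9) for control and 6.04 ± 0.64 (SD, n = 6) for Nos3-/-, a difference of 0.45 that did not pass (adjusted p = 0.307). The difference passed in 1 of 40 alternatives, without the 4 arrays least like their groups (0.64, limma adjusted p = 0.0385, range 0.0385 to 0.584). From day 0 to day 11 Pecam1 rose by 0.64 in control (SE 0.22, limma adjusted p = 0.0222), which missed the threshold without control day 11 replicate 7 (0.56, adjusted p = 0.0509), and its change in Nos3-/- was 0.23 (adjusted p = 0.552). Unlike Cdh5 and Kdr, Pecam1 was therefore not raised over time in Nos3-/- cells by a margin that passed, and the difference between the 2 time courses was -0.41 (adjusted p = 0.590).

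Aplnr, the apelin receptor, was the member with the widest spread and the largest day 0 difference among the 10. The control day 0 arrays read 5.38, 9.72, 9.63, 7.69, 8.02, 9.32, 7.13, 8.93, 6.24 and 8.87, and the Nos3-/- day 0 arrays 3.44, 4.68, 7.27, 5.27, 4.27 and 5.34. The highest Nos3-/- array was replicate 3, and the lowest control arrays were replicates 1 and 9. The difference was -3.05 (SE 0.69, limma adjusted p = 0.00327), and its second probe set gave -0.58 (adjusted p over probe sets 0.0479), so the sign held and the size did not.

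From day 0 to day 11 Aplnr rose by 2.00 in control (SE 0.61, limma adjusted p = 0.0116) and by 3.98 in Nos3-/- (SE 0.77, limma adjusted p = 0.000326). The Nos3-/- embryoid bodies read 9.89, 9.89, 5.18, 8.75, 10.32 and 10.09, against 10.09 ± 0.84 (SD, n = 9) in control, and their difference of -1.07 did not pass (adjusted p = 0.412) and was -0.31 without replicate 3. Of these 6 arrays 5 were above every Nos3-/- day 0 array, and replicate 3 was the exception. The difference between the 2 rises was 1.97 (SE 0.98, adjusted p = 0.305), and it was 3.29 without the 4 arrays least like their groups (adjusted p = 0.00412, range 0.00412 to 0.464). The second probe set rose by 0.65 in control and 0.85 in Nos3-/-.

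The 7 other genes of the apelin pathway, its ligands and the G proteins and arrestins it uses, gave 0 called at day 11 in limma (0 also at an unadjusted p under 0.05), 1 lower at day 0 (Gnai2, -0.35), 2 higher over time in control (Arrb1, 0.67, and Gna13, 0.19) and 3 in Nos3-/- (Gnaq, Arrb1 and Gnai2, the last named after its value was seen). Of all genes 34.2% were called over time in control (16% higher) and 31.1% in Nos3-/- (13% higher). The day 0 count was 2 without Nos3-/- replicate 1 or 3, and Gna13 was lost without control day 0 replicate 5, 6, 8 or 9 or control day 11 replicate 3, 4, 6 or 7. The ligands Apln and Apela did not pass in any of these comparisons. Apln was 8.17 ± 0.69 (SD, n = 10) and 8.46 ± 0.59 (SD, n = 6) at day 0 and 8.04 ± 0.60 (SD, n = 9) and 7.80 ± 0.23 (SD, n = 6) at day 11, and Apela lay at 10.75 to 11.35 in the 4 group means. The receptor thus moved while its ligands gave no call.

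In all, 4 of the 10 genes passed at day 0, Pecam1 higher and Flt1, Angpt1 and Aplnr lower in Nos3-/-, against 16.6% of all genes (9.17% higher and 7.47% lower). That count was 2 without Nos3-/- day 0 replicate 5. At day 11, 1 passed, Tek, against 9.7% of all genes (5.29% lower), and the count was 2 without control day 0 replicate 8 or day 11 replicate 3, 3 without Nos3-/- day 11 replicate 6 or control day 11 replicate 1 or 6, and 4 without the 4 arrays least like their groups. Over time 8 passed in control, 7 of them higher, against 34.2% of all genes (16% higher), and 6 in Nos3-/-, all higher, against 31.1% (13% higher). Groups of the 2 days did not overlap for 2 members in control (Tek and Kdr, against 6.52% of all genes) and for 1 in Nos3-/- (Cdh5, against 7.83%). The members' median change over time was 0.94 in control and 0.54 in Nos3-/-, beside -0.03 and -0.06 over all genes, and their median genotype difference was -0.17 at day 0 and -0.31 at day 11, beside 0.01 and 0.

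Lists of marker genes for cell types moved beside the members at day 0. Of 23 pluripotency genes 6 were higher and 0 lower in Nos3-/- (9 and 1 at an unadjusted p under 0.05 in limma), and of 19 mesendoderm genes 0 were higher and 11 lower (0 and 13). These counts were 3 and 3 without Nos3-/- day 0 replicate 5. The first was also 3 without Nos3-/- replicate 1, 2 or 6 or control replicate 6, and 11 without Nos3-/- replicate 3, and the second was 7 without Nos3-/- replicate 1 or control replicate 10. The mean over the pluripotency genes was 9.45 to 10.81 on control arrays, where replicates 1 and 9 (10.81 and 10.60) were the highest, and 8.76 to 11.26 on Nos3-/- arrays. Replicates 1 and 9 had the lowest control values of Aplnr and Flt1, and Nos3-/- replicate 3, with the lowest pluripotency mean of all day 0 arrays, had the highest Nos3-/- value of both. Of 25 fibroblast and feeder genes 0 were higher and 8 lower at day 0 (0 and 14 unadjusted), with means of 9.81 to 11.15 in control and 9.55 to 10.42 in Nos3-/-, a count that was 3 without Nos3-/- day 0 replicate 2 or 5 and 5 without control day 0 replicate 6. The part of either in the differences of Flt1, Angpt1, Aplnr and Pecam1 was not tested.

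**Figure D4:**
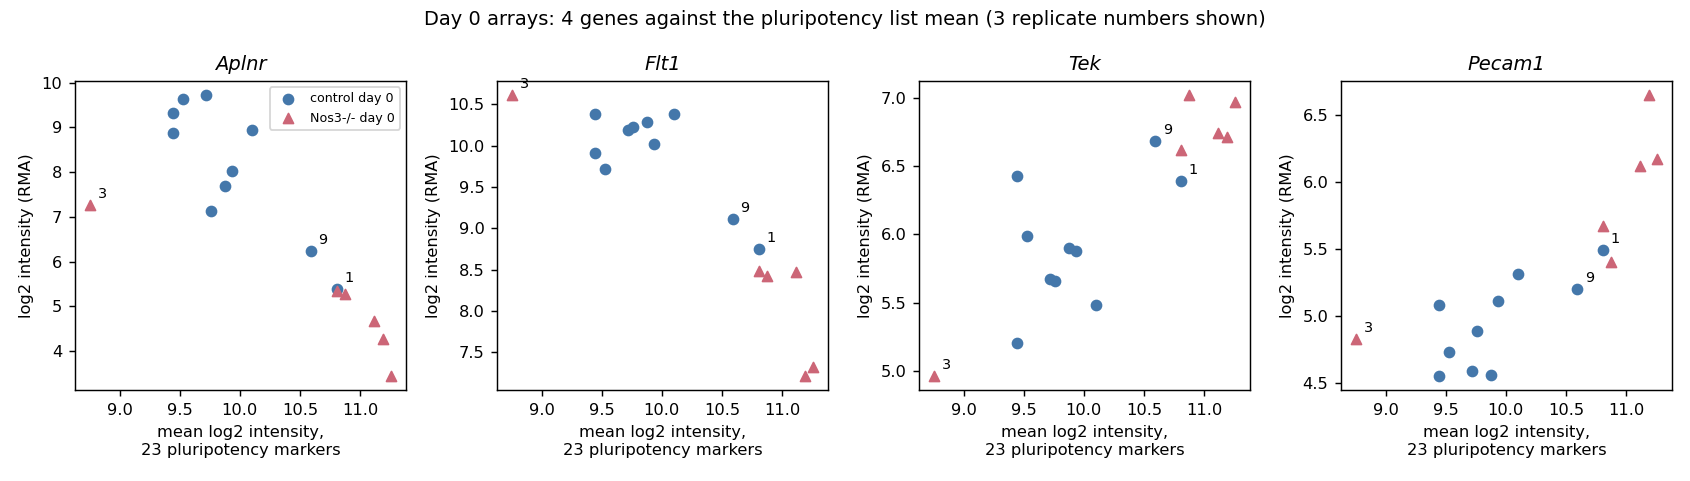
Log2 intensity of Tek, Flt1, Pecam1 and Aplnr on the 16 day 0 arrays against the mean of the 23 pluripotency genes on the same array. Nos3-/- replicate 3 lies at 8.76 on the horizontal axis, below every control array, and control replicates 1 and 9 lie at 10.81 and 10.60, nearer the Nos3-/- arrays.

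Beside the lower Tek at day 11, 51 further endothelial markers were read in the same embryoid bodies. In limma 3 were higher in Nos3-/- and 0 lower (6 and 3 at an unadjusted p under 0.05), with a median of -0.03 beside 0 over all genes. The 3 were Tm4sf1 (2.29), Cav1, the coat protein of caveolae (1.09), and Arap3, a regulator of small GTPases (0.70), the last named after its value was seen, and the count was 5 without Nos3-/- day 11 replicate 3 or control day 11 replicate 6. The mean over the list was 6.19 to 6.97 on control and 6.19 to 7.21 on Nos3-/- arrays. The groups thus overlapped, with Nos3-/- replicate 6, at 7.21, above every control array. In whole embryoid bodies, fewer cells of a type and less RNA per cell cannot be told apart. Marker genes of other cell types also passed at day 11: 7 of the 23 pluripotency genes were higher in Nos3-/- (12 without Nos3-/- day 11 replicate 3 and 3 without replicate 4), 10 of the 25 fibroblast and feeder genes were lower and 2 higher, and 4 of 15 mural cell genes, those of pericytes and smooth muscle, were lower and 1 higher. Their part in the Tek difference was not tested.

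At day 0, 3 of the 51 endothelial markers were higher, among them Plvap, a protein of endothelial pores (0.99), and 2 lower in Nos3-/-. That count of 5 was 1 without Nos3-/- day 0 replicate 5, and 3 without Nos3-/- replicate 1, 2 or 6 or control replicate 2, 3, 6, 7 or 10. Over time 16 of the 51 endothelial markers rose and 8 fell in control, and 10 rose and 7 fell in Nos3-/-, a count of 17 that ran from 14 without Nos3-/- day 11 replicate 2 to 22 without replicate 3. Of all genes 16% rose and 18.2% fell in control. In Nos3-/- 31.1% of all genes were called, 13% as higher, so the count of 17 was near the share of all genes. Ramp2, a partner of the adrenomedullin receptor, rose by 1.89 and 2.06, and Icam2, an adhesion molecule of endothelium, by 1.39 in control and 1.2 in Nos3-/-. Calcrl, which pairs with Ramp2, rose by 1.70 in Nos3-/-, and its control mean was 5.96 at day 0 and 6.84 at day 11. The genes that fell most, Tm4sf1 (-5.91 in control and -3.83 in Nos3-/-) and Cav1 (-4.05 and -2.29), are also made by fibroblasts. Fibroblast and feeder genes fell over the same days, 14 of 25 in control and 17 of 25 in Nos3-/-, and the white blood cell list fell too, 13 and 12 of 22. Feeder cells were present in the day 0 samples, and their part in the members' changes over time was not tested.

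Whether the genes moved together from array to array was asked after subtracting each group's mean, over all 31 arrays and 45 pairs, with 100000 permutations within groups and Benjamini-Hochberg adjustment over the pairs. By this, 10 pairs passed by Pearson's r, and 7 of them also by Spearman's rho. Kdr and Cdh5 had r = 0.80 (permutation adjusted p = 0.0027) and rho = 0.66 (adjusted p = 0.0202), and r = 0.74 without the 2 arrays farthest in Kdr. Within groups that relation was seen in the embryoid bodies, with r = 0.78 in control and 0.97 in Nos3-/- at day 11, against -0.17 and -0.19 at day 0. Both genes varied little at day 0. Their SDs in control and Nos3-/- were 0.24 and 0.11 for Kdr and 0.29 and 0.15 for Cdh5. The day 0 values therefore cannot show that the relation is absent there.

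Tie1 and Cdh5 gave r = 0.76 and rho = 0.63 (permutation adjusted p = 0.00315 and 0.0259, r = 0.70 without the farthest 2), and Angpt2 and Cdh5 r = 0.70 and rho = 0.64 (0.00157 and 0.0084, r = 0.61). Both were again highest in Nos3-/- embryoid bodies, at 0.97 and 0.95. Angpt2 with Kdr (r = 0.46, adjusted p = 0.0839) and with Tie1 (r = 0.39, adjusted p = 0.152) did not pass. Over all arrays Tek had r of 0.08, 0.09 and 0.25 with Kdr, Tie1 and Cdh5, none of which passed. Within Nos3-/- embryoid bodies the same values were 0.49, 0.81 and 0.67, and within control embryoid bodies 0.02, -0.13 and 0.51, over 6 and 9 arrays and with no test of their own.

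Flt1 and Aplnr formed the other pair, with r = 0.71 and rho = 0.52 (permutation adjusted p = 0.0021 and 0.0322, r = 0.72 without the 2 farthest). Here the relation was present at day 0, at 0.69 in control and 0.96 in Nos3-/-, and at day 11 r was 0.34 in control and 0.91 in Nos3-/-. Nos3-/- replicate 3 was the highest of its group for Flt1 and Aplnr at day 0 (10.61 and 7.27). At day 11 replicate 3 was the lowest for both (7.50 and 5.18). That day 11 array was not among the 2 farthest in Flt1. The value of 0.91 may rest on it, and r without it was not computed. Kdr and Aplnr had r = 0.61 and rho = 0.56 (0.00157 and 0.0084), which fell to r = 0.46 without the 2 farthest, and Angpt1 passed by both measures with Cdh5 (r = 0.61) and with Kdr (r = 0.60). Tek and Aplnr had r = -0.47 (adjusted p = 0.0368) and rho = -0.41 (0.0952), and r was -0.32 without the 2 farthest.

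**Figure D5:**
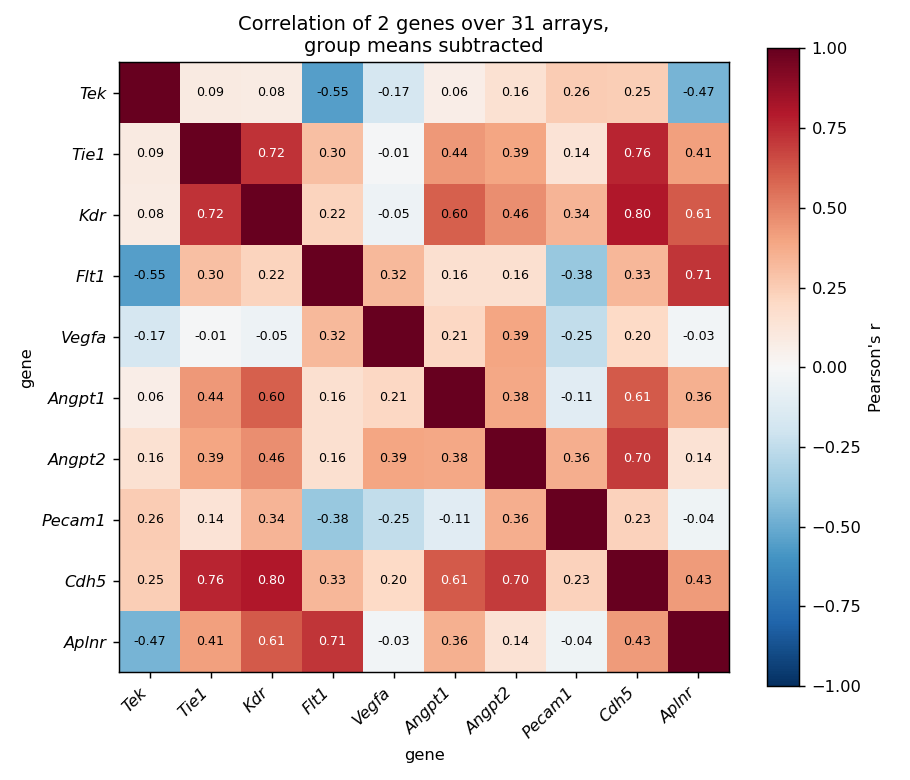
Pearson's r between each pair of the 10 genes over 31 arrays after each group's mean was subtracted (colour scale from -1 to 1, values in the cells). Kdr, Cdh5 and Tie1 form a block with r from 0.72 to 0.80, and Tek has r of 0.08 and 0.09 with Kdr and Tie1. Within the block, Tie1 with Kdr did not pass by Spearman's rho (0.54, permutation adjusted p = 0.0577). For that pair r was 0.12 in control and -0.85 in Nos3-/- at day 0, and 0.74 and 0.90 at day 11.

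By the same measure over 31 arrays, among genes at or above the median level, the genes most like Tek were Dock9 (r = 0.71), Osbpl1a (0.68) and Pim1 (0.68). Their rho with Tek was 0.56, 0.51 and 0.58. Kdr was most like Vegfc, a ligand of the VEGF family (0.85), Hoxb2 (0.82) and Fbn2 (0.81), and Cdh5 most like Ctla2a (0.81), Kdr (0.80) and Arhgap28 (0.78). Flt1 had the closest neighbours by r, Foxq1 (0.94), Dgkk (0.93) and Amot (0.91), the last an angiostatin-binding protein. Spearman's rho for these was 0.81, 0.85 and 0.77, below the 0.86, 0.88 and 0.86 of the 3 genes most like Angpt1. Pecam1 was most like Morc1 (0.85), Klf2 (0.83) and Dppa3 (0.82), the last 2 being expressed in naive pluripotent cells, and Aplnr most like Prtg (0.87), Pcdh8 (0.87) and Smad1 (0.86). Angpt1 was most like Adam12 (0.86), Angpt2 like Magi3 (0.78), Tie1 like Kdr (0.72) and Vegfa like Slc30a4 (0.74). These are the highest of many correlations on the same arrays and carry no test.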

How the data were processed

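RNA of 31 samples was hybridized to Affymetrix arrays as biotinylated cRNA. Per the submitters' processing notes, the authors summarized the arrays with RMA, and the deposited values are log2 intensities of 45101 probe sets. No aligner, software version, batch or scan date is given in the sources used here. Probe sets were named from the platform annotation, where 34958 carry 1 symbol, 932 several and 9211 none, and 34754 matched mouse genes of GRCm38.p6. Each gene took its probe set with the highest mean, which left 18194 genes.

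The deposited log2 values entered a limma fit (3.58.1, R 4.3.3) with 1 mean per group, 27 residual and 2.80 prior degrees of freedom and 5 comparisons. Adjusted p-values are Benjamini-Hochberg over all genes. Standard errors are those of the fit, and ± is the SD between arrays. The fit was tested on simulated data. Permutation tests over arrays and figures used Python 3.

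The members and the 12 gene lists (257 of 267 entries measured) were chosen with earlier results of these data known. Besides the 10 genes and Nos3, the text names up to 2 passing genes at either end of each list in a comparison and the 3 genes most correlated with a member, and a gene outside this rule is said to be so. Alternatives changed the scaling, the filter on low values, the probe set of a gene, the variance model, the arrays in the fit and the replicate block, and left out each array in turn. Every comparison was refitted each time, also where the array left out belonged to neither of its groups. The difference then stayed the same, and only the estimate of the spread changed. Counts of alternatives include these refits. List genes without a match are not analysed here.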

Additional observations from a re-analysis of the deposited data

Results flagged for a closer look

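In 5 of 40 sets of arrays of 1 gene and 1 group, the highest or lowest array stood far from the others by Dixon's criterion, which chance gives in about 1 of 20. All 5 were replicate 3 of Nos3-/-. At day 0 this array was the lowest for Tek, at 4.96 (its gap was 0.806 of the group's range, against a critical value of 0.625), and the highest for Flt1, at 10.61 (0.626), and for Vegfa, at 9.46 (0.629). At day 11 it was the lowest for Flt1, at 7.50 (0.711), and for Aplnr, at 5.18 (0.695). The labels do not say whether the arrays of the 2 days with this number come from 1 line.

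The change of Tek from day 0 to day 11 differed between the genotypes by -1.84 (limma adjusted p = 0.011), the one member for which the test of that difference passed.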

How the results depend on the processing

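Of the members' differences, 428 of 445 kept direction and side of the threshold under the alternatives of scaling, filter, probe set, variance model, arrays in the fit and replicate block. Of the others 11 came to pass, 3 no longer passed and 3 changed sign. With 1 array left out, 1498 of 1550 kept both, 21 came to pass, 13 no longer passed and 18 changed sign. The 1550 include refits without an array of neither group compared. There the difference cannot change and only the shared spread does, so the share that kept both overstates how far the differences were tried. The members called numbered 4, 1, 8, 6 and 1 in the comparison at day 0, that at day 11, the control time course, the Nos3-/- time course and the difference between them. They ran with 1 array left out from 2 to 6, 1 to 3, 7 to 10, 5 to 6 and 1 to 2. With genes below the median level left out they were 2, 0, 3, 3 and 0, since fewer members were then tested, and with the lower tertile left out 2 at day 11. Array weights gave 3 at day 11 and 3 in the difference. Without the 4 arrays least like their groups, a setting chosen after seeing the data, they were 4 at day 11 and 3 in the difference.

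Changes of sign touched only differences that were not called. With array weights Flt1 at day 11 was 0.0196. Under the replicate block Cdh5 at day 0 was 0.11 and Vegfa at day 11 -0.0183, and without the 4 arrays Vegfa at day 11 was -0.033. With 1 array left out, Flt1 at day 11 ran from -0.29 to 0.0264, Vegfa at day 11 from -0.025 to 0.0838, Tie1 at day 11 from -0.0227 to 0.19, and in the difference between the time courses Kdr ran from -0.50 to 0.0693 and Angpt1 from -0.24 to 0.19. The cause was not tested.

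Same-numbered arrays did not deviate together (r from -0.27 to 0.35, over 0.1 in 2 or 3 pairs of each pair of groups), so the numbers were not taken as pairs. With the replicate block 3, 1, 9, 6 and 1 members were called, Angpt1 at day 0 was -0.83 (adjusted p = 0.185) and Tie1 over time in control 0.35 (0.0484). The count of all genes called was 225 in the difference, 1590 with array weights, and 88 to 745 with 1 array left out. At day 11 it was 1764, against 3939 with array weights. Signal over background was not analysed here.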

Other observations

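Among the lists of blood cells, primitive erythroid genes, those of the first red blood cells, included genes that rose in control embryoid bodies. Hbb-bh1, an embryonic globin, rose by 4.99 in control, and 5 of 13 genes on the list were higher and 3 lower there, against 0 higher and 3 lower in Nos3-/- (2 and 3 at an unadjusted p under 0.05 in limma). Hbb-bh1 was -2.66 in Nos3-/- against control at day 11, a call lost without any one of Nos3-/- day 11 replicates 1, 3, 4 and 5 and control day 11 replicates 2 and 4 to 9, and 0 genes of the list passed in the difference between the time courses (3 unadjusted, 1 higher and 2 lower). The mean over the list ran from 5.22 to 6.70 in control and from 5.33 to 6.53 in Nos3-/- embryoid bodies.

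Of 15 mural cell genes 4 were lower in Nos3-/- embryoid bodies, among them Pdgfrb, the receptor by which pericytes are recruited (-1.66). Rgs5, a pericyte marker, rose by 3.44 over time in control and by 3.08 in Nos3-/-. Of these 15 genes 1 rose and 4 fell over time in control, and 2 rose and 3 fell in Nos3-/-. These totals were near the 34.2% and 31.1% of all genes called. Of 29 hypoxia genes 18 rose and 2 fell in control and 9 rose and 1 fell in Nos3-/-, while Vegfa, itself a hypoxia target, rose in Nos3-/- by 0.56 and changed by 0.31 in control. Of 19 visceral endoderm genes 16 rose and 1 fell in control and 5 rose and 0 fell in Nos3-/-, the latter 3 without Nos3-/- day 0 replicate 1 or 2 or day 11 replicate 2 or 6 and 8 without the 4 arrays least like their groups. In the difference between the time courses 0 genes of the mural, hypoxia and visceral endoderm lists passed in limma, and at an unadjusted p under 0.05 these lists had 3, 0 and 1 higher and 1, 0 and 9 lower.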
